A study of Saccharomyces cerevisiae with 6 samples.

Results

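The RAD genes of *Saccharomyces cerevisiae* carry the names of loci whose mutants are sensitive to radiation. Their transcripts were compared between yeast treated with pterostilbene, the dimethylether analog of resveratrol that some plants make against fungi, and yeast given solvent. Members were all genes on the array whose probe set annotation gives a single symbol made of RAD and a number. This gave 29 of 5656 genes measured, read by 34 probe sets, 1 per gene except for *RAD50*, and a gene with several probe sets was represented by the brightest. By role, 13 belong to nucleotide excision repair, 6 to recombination, 4 to the checkpoint, 4 to damage bypass and 2 to other processes.

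All cultures were of the haploid laboratory strain S288C, of mating type alpha, grown in buffered synthetic dextrose medium from a single colony, and all carry *flo8-1*, *flo1*, *gal2*, *mal* and *mel* with *CUP1* and *SUC2*. One group of 3 independent cultures received pterostilbene at 70 μM, and the other group of 3 received 0.25% dimethyl sulfoxide (DMSO) alone. Agents were added at an optical density of 0.2 and cells were collected at 0.5, so treated cultures may have been harvested later, and the effect of slower growth cannot be told apart from that of the compound. The methods do not say whether the DMSO that carried pterostilbene was made up to the level in the controls.

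Nucleotide excision repair cuts a short stretch of damaged strand out of DNA. Damage is recognised by Rad4 with Rad23 or, in DNA that is not being transcribed, with the help of Rad7 and Rad16, the helix is opened by the helicases of the transcription factor TFIIH, and nucleases cut on both sides. Recombinational repair mends double-strand breaks by copying an intact homologous sequence. The checkpoint is a kinase cascade that senses damaged or single-stranded DNA and holds the cell cycle, and damage bypass lets replication forks pass lesions. Several genes of these groups are known in yeast to be induced by DNA damage.

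Each value is a signal, meaning the linear intensity that Affymetrix software computed for a probe set, and a probe set is a handful of short oligonucleotides matched to 1 transcript. The median signal was 162 to 170.2 on the pterostilbene arrays and 119 to 123 on the control arrays. Spiked poly-A controls, bacterial transcripts added to the total RNA before labelling, were 5.3-fold higher on the pterostilbene arrays (median of 12 probe sets), and hybridization controls were 1.08-fold higher (9 probe sets). Calls after rescaling of the arrays are given below. The source of these shifts was not tested, nor was any part of the poly-A difference in the results. Probe sets for 4 mouse transcripts, which yeast lacks, read 0.7 to 8.8 with pterostilbene and 1.3 to 7.0 in the controls. As markers of the strain's mating type, the alpha-specific genes *MF(ALPHA)1*, *MF(ALPHA)2*, *STE3* and *SAG1* were present in the controls but lower with pterostilbene, *STE3* reading 183 to 224 with pterostilbene and 1580.0 to 1851 in the controls. Of the a-specific genes, *STE2* was dim, at 13.2 to 22.6 with pterostilbene and 29.4 to 46.0 in the controls, while *MFA1* read 465 to 622 with pterostilbene and 214 to 261 in the controls. The part of these genes in the results was not tested. The number of arrays limits the precision.

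Differences between groups come from limma's moderated test on log2 signals, with Benjamini-Hochberg adjustment over all probe sets, and the words rose and fell are kept for an adjusted p under 0.05. Among the 29 RAD genes there were 16 rises, 0 falls and 13 genes without a call, where 35.8% of all genes rose and 18.4% fell. By limma's unadjusted p under 0.05, 19 were higher and 1 lower, and the methods' t-test found 15 higher and 0 lower after adjustment and 16 and 1 before. The median log2 fold change of the RAD genes was 0.75, against 0.22 for all genes. By at least 2-fold, 10 RAD genes rose (17% of all genes) and 0 fell (3.98% of all genes). The 3 signals with pterostilbene exceeded each of the 3 control signals for 20 RAD genes (44.2% of all genes) and lay below each of them for 2, *RAD3* and *RAD55* (24.5% of all genes). These counts depend on how the arrays are scaled. After quantile normalization 9 RAD genes rose and 4 fell, where 21.6% and 30.4% of all genes did, and after each array was centred on its median 11 rose and 6 fell, where 19.3% and 39% of all genes did. After centring on 5 housekeeping reference genes 20 rose and 0 fell, where 43.7% and 14.5% of all genes did.

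**Figure D1:**
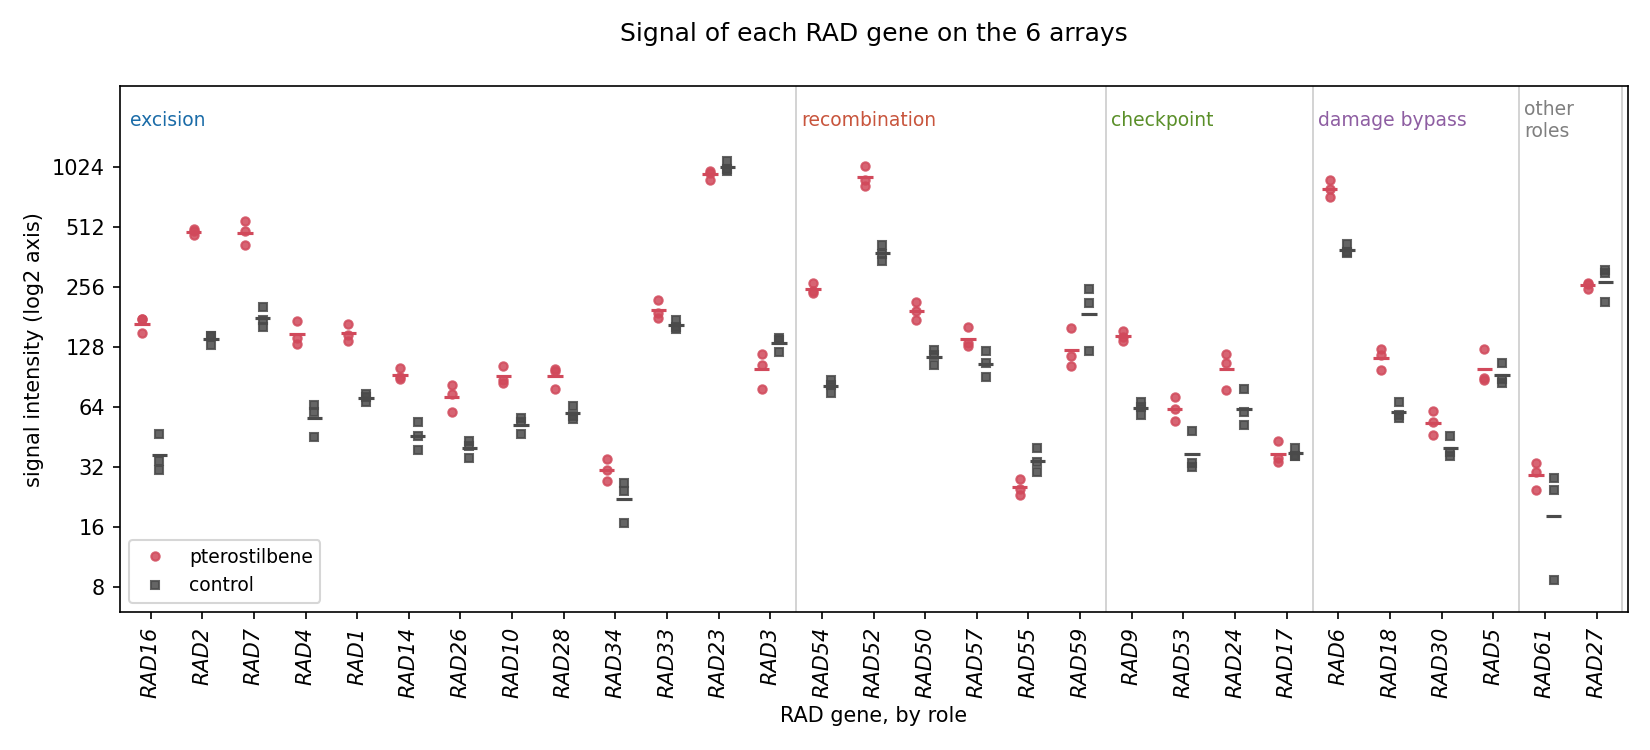
Signal intensity (log2 axis) of each of the 29 RAD genes on 3 pterostilbene arrays (circles) and 3 control arrays (squares), with the geometric mean as a bar, grouped by role. *RAD16*, *RAD2* and *RAD54* have the widest gaps between the groups, and *RAD23*, the brightest control signal of the set, overlaps.

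Excision genes, the largest group with 13 of the 29 RAD genes, had 9 of the 16 rises. The other 4 did not pass the test, and the median log2 fold change was 0.85. Of all genes 35.8% rose, with a median of 0.22. After quantile normalization 5 of 13 excision genes rose, where 21.6% of all genes did. The widest difference of any RAD gene was that of *RAD16*, whose product is a Swi2/Snf2-type ATPase that works with Rad7 on DNA that is not transcribed. It read 177, 151 and 177 with pterostilbene, against 34.2, 47.2 and 30.9 in the controls, so the lowest treated culture was more than 3-fold above the highest control. The log2 fold change was 2.19 (adjusted p = 0.00061, SE 0.19), a 4.56-fold rise. *RAD7*, its partner, read 414, 488 and 549 with pterostilbene and 175, 203 and 161 in the controls. These groups did not overlap either, and the log2 fold change was 1.43 (adjusted p = 0.0012, SE 0.15).

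The damage recognition pair behaved unequally. *RAD4*, which encodes the DNA-binding subunit, read 172, 143 and 133 with pterostilbene, against 65.5, 60.7 and 45.1 in the controls, with a log2 fold change of 1.40 (adjusted p = 0.0025, SE 0.19). *RAD23*, whose product stabilises Rad4 and also carries a ubiquitin-like domain that binds the proteasome, was among the brightest of the set. Its signals were 884, 959 and 979.7 with pterostilbene and 1004, 979 and 1099 in the controls, ranges that overlap, and it did not pass the test (log2 fold change -0.13, SE 0.10, adjusted p = 0.35). It fell after median centring (log2 fold change -0.58, adjusted p = 0.0046). The log2 ratio of *RAD4* to *RAD23* within an array, which does not change when a whole array is multiplied by a factor, was -2.36, -2.75 and -2.88 with pterostilbene, against -3.94, -4.01 and -4.61 in the controls.

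The nuclease genes rose. *RAD2* encodes the nuclease that cuts 3′ of the lesion, and read 468, 490.3 and 499.5 with pterostilbene, against 146, 145 and 131 in the controls. The cultures of each group lay close together, and its log2 fold change of 1.79 had the smallest error of the RAD genes (adjusted p = 0.00018, SE 0.10). On the 5′ side the cut is made by the Rad1-Rad10 nuclease, which Rad14, a zinc finger protein that binds damaged DNA, brings to the site. *RAD1* read 137, 147 and 167 with pterostilbene and 74.2, 67.7 and 72.1 in the controls, a log2 fold change of 1.07 (adjusted p = 0.0012, SE 0.11). The signals of *RAD10* were 87.7, 84.4 and 103 with pterostilbene and 47, 53.7 and 56.6 in the controls, with a log2 fold change of 0.80 (adjusted p = 0.0047, SE 0.13). For *RAD14* they were 88.7, 90.4 and 100.3 with pterostilbene and 39, 53.8 and 45.9 in the controls, with a log2 fold change of 1.02 (adjusted p = 0.0032, SE 0.15). All 3 genes of this assembly were thus higher in every treated culture. Within an array, the log2 ratio of *RAD14* to *RAD1* averaged -0.69 ± 0.05 with pterostilbene and -0.64 ± 0.30 in the controls (SD, n = 3 each). The call of *RAD10* was lost after quantile normalization (adjusted p = 0.24) and after median centring (adjusted p = 0.066), and that of *RAD14* after quantile normalization (adjusted p = 0.075).

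*RAD3* had a negative log2 fold change. It encodes the 5′ to 3′ helicase of TFIIH, an essential factor that also serves transcription. Its signals were 104, 119 and 78.9 with pterostilbene, all below the control signals of 139.5, 122 and 142, but it did not pass the test (log2 fold change -0.43, SE 0.18, adjusted p = 0.095). It fell after quantile normalization (-0.93, adjusted p = 0.013) and after median centring (-0.89, adjusted p = 0.011) on the log2 scale. The log2 ratio of *RAD2* to *RAD3* was 2.17, 2.05 and 2.66 on the pterostilbene arrays, against 0.06, 0.25 and -0.11 on the control arrays.

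Among the genes of transcription-coupled and accessory excision repair, 2 of 4 rose, where 35.8% of all genes did. *RAD26*, which encodes the ATPase that couples repair to transcription and is the counterpart of human CSB, read 74.5, 60.8 and 82.2 with pterostilbene and 41, 43.3 and 35.5 in the controls (log2 fold change 0.85, SE 0.15, adjusted p = 0.0068). *RAD28*, the counterpart of human CSA, read 96.8, 99.9 and 78.5 with pterostilbene and 65.1, 58.1 and 55.9 in the controls (log2 fold change 0.61, SE 0.14, adjusted p = 0.014). Both calls were lost after quantile normalization (adjusted p = 0.29 and 0.86) and median centring (0.069 and 0.38), and *RAD28* missed the threshold without pterostilbene replicate B (adjusted p = 0.053). The remaining members are linked to Rad4. *RAD33*, whose small product binds Rad4, read 190.1, 179 and 220.0 with pterostilbene and 175, 158 and 162 in the controls, without overlap, and its log2 fold change of 0.25 was close to that of the median gene (adjusted p = 0.14, SE 0.12). *RAD34*, a paralog of *RAD4* that serves repair of ribosomal DNA, was dim, at 35, 30.9 and 27.3 with pterostilbene and 26.7, 24.2 and 16.8 in the controls (log2 fold change 0.48, SE 0.21, adjusted p = 0.11). The log2 ratio of *RAD4* to *RAD34* was 2.27 ± 0.05 with pterostilbene and 1.35 ± 0.07 in the controls (SD, n = 3 each), with no overlap of the groups.

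**Figure D2:**
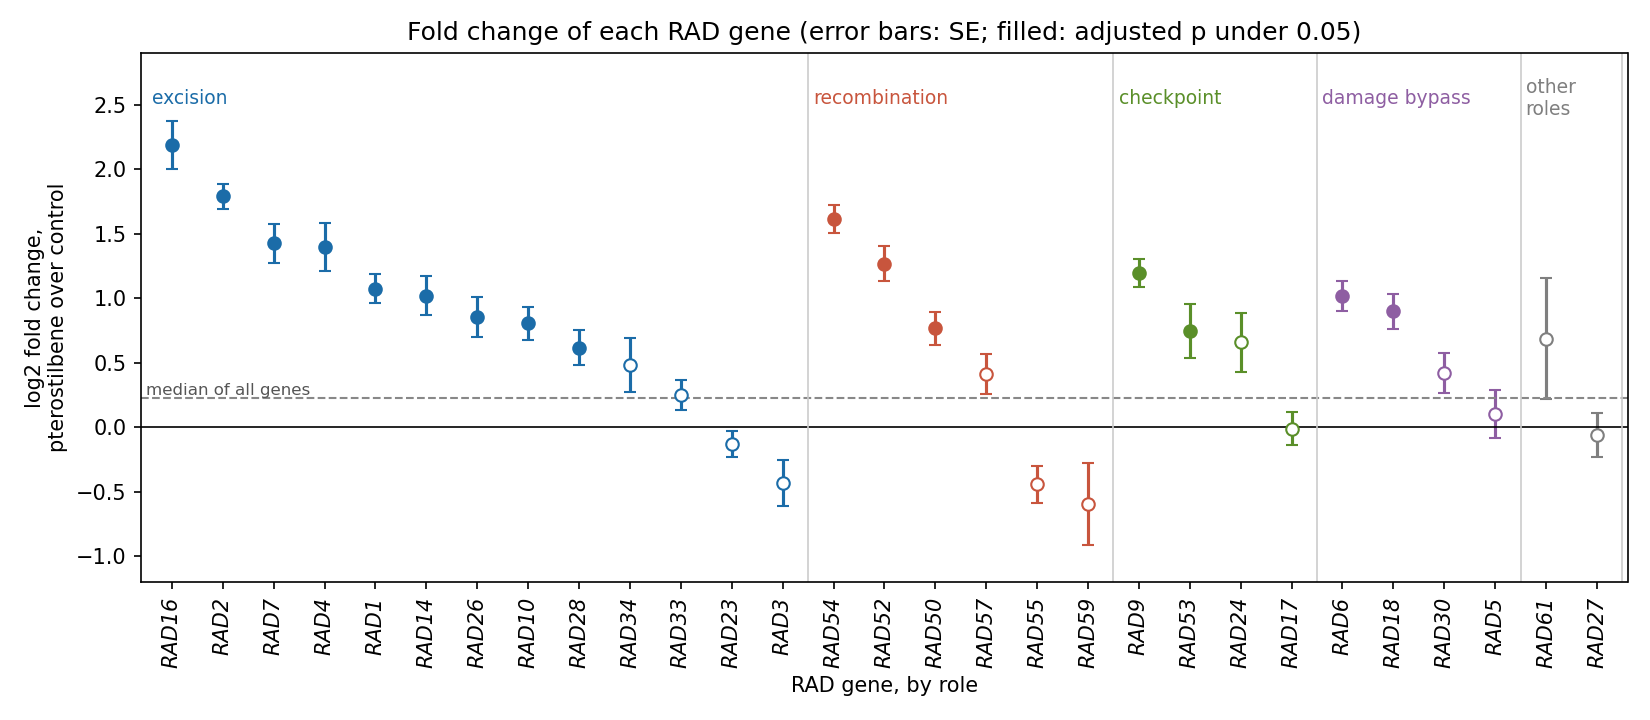
Log2 fold change, pterostilbene over control, of each RAD gene with its standard error from limma, grouped by role, with filled points for adjusted p under 0.05 and a dashed line at the median of all genes, 0.22. Filled points run from 0.61 (*RAD28*) to 2.19 (*RAD16*), and all 16 lie above the line.

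In recombination, 3 of 6 genes rose, where 35.8% of all genes did, and 3 did not pass the test. *RAD54* encodes a Swi2/Snf2-type translocase that drives strand invasion and is known as a gene induced by DNA damage. It read 239, 269.7 and 244 with pterostilbene, against 75.6, 87.5 and 82.3 in the controls, and rose 3.07-fold, with a log2 fold change of 1.62 (adjusted p = 0.00031, SE 0.11). *RAD52*, the central mediator and strand-annealing gene, was one of the brightest members. Its signals were 820.5, 878 and 1038 with pterostilbene and 374, 346 and 416 in the controls, a log2 fold change of 1.27 (adjusted p = 0.0012, SE 0.14). *RAD59*, a paralog of *RAD52*, showed the opposite sign, at 116, 159 and 103 with pterostilbene and 251, 212 and 123 in the controls. Control replicate C lay among the treated cultures, and the log2 fold change of -0.59 did not pass the test (adjusted p = 0.18, SE 0.32). Without that array it was -0.90 (adjusted p = 0.035), and *RAD59* also fell after quantile normalization and median centring (adjusted p = 0.040 and 0.038). The log2 ratio of *RAD52* to *RAD59* was 2.82, 2.46 and 3.33 with pterostilbene and 0.57, 0.71 and 1.76 in the controls.

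*RAD55* and *RAD57* encode the subunits of a heterodimer that stabilises recombinase filaments on single-stranded DNA, and their signs differed. *RAD55* read 23.2, 25 and 28 with pterostilbene, below all control signals of 33.9, 30.2 and 39.8, with a log2 fold change of -0.44 (SE 0.14) and an adjusted p of 0.05001, just above the threshold. It fell after quantile normalization (-1.14, adjusted p = 0.0018) and median centring (-0.89, adjusted p = 0.0034), and its adjusted p was 0.047 without control replicate B and 0.04995 without pterostilbene replicate C. *RAD57* read 134, 129 and 162 with pterostilbene, above all control signals of 91.1, 106 and 122 (log2 fold change 0.41, SE 0.16, adjusted p = 0.08). Within an array the log2 ratio of *RAD55* to *RAD57* was -2.48 ± 0.09 with pterostilbene and -1.62 ± 0.20 in the controls (SD, n = 3 each).

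*RAD50*, a subunit of the Mre11-Rad50-Xrs2 complex that holds and processes broken ends, was read by 6 probe sets. The brightest gave 175, 194 and 215 with pterostilbene and 117, 104 and 123 in the controls, and rose, with a log2 fold change of 0.77 (adjusted p = 0.0051, SE 0.13). The other 5 were dim, with no signal above 55.6, and none passed the test. Their log2 fold changes ran from 0.09 to 1.41. With the 6 averaged, the log2 fold change was 0.84 (adjusted p = 0.12). The call was also lost after quantile normalization (adjusted p = 0.071) and median centring (adjusted p = 0.065).

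Of the 4 checkpoint genes, 2 rose, where 35.8% of all genes did. *RAD9*, which encodes the adaptor that passes the damage signal to the effector kinase and was the first checkpoint gene described in yeast, read 155, 143 and 137 with pterostilbene, against 63.9, 67.8 and 58.5 in the controls. Each treated culture was more than double the highest control, with a log2 fold change of 1.20 (adjusted p = 0.0007, SE 0.11). *RAD53*, the effector kinase gene and the counterpart of human CHK2, read 62.4, 54.6 and 72.3 with pterostilbene and 48.8, 33.4 and 31.9 in the controls. Its rise, with a log2 fold change of 0.75 (adjusted p = 0.03, SE 0.21), was kept under 7 of 15 alternative settings. The adjusted p was 0.086 and 0.083 without control replicates B and C, 0.079 and 0.083 without pterostilbene replicates A and C, 0.68 after quantile normalization and 0.25 after median centring. *RAD24*, whose product loads the ring-shaped Rad17-Mec3-Ddc1 clamp on DNA, read 119, 106 and 77.6 with pterostilbene and 78.6, 52 and 60.6 in the controls. One treated culture fell within the control range, and with a log2 fold change of 0.66 it missed the threshold (adjusted p = 0.059, SE 0.23), though not without control replicate A (0.044) or pterostilbene replicate C (0.033). *RAD17*, the clamp subunit itself, read 43.3, 33.9 and 35.4 with pterostilbene and 39.9, 36.3 and 36.6 in the controls (log2 fold change -0.01, SE 0.13). It fell after quantile normalization (-0.68, adjusted p = 0.015) and median centring (-0.46, adjusted p = 0.033) on the log2 scale.

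Damage bypass begins with Rad6 and Rad18, which attach ubiquitin to the sliding clamp of the replication fork, and both genes rose. *RAD6*, a ubiquitin-conjugating enzyme that also modifies histones, read 795, 880.1 and 728 with pterostilbene and 383, 381 and 422 in the controls, with a log2 fold change of 1.02 (adjusted p = 0.0014, SE 0.11). *RAD18*, the ubiquitin ligase that partners it, read 98.8, 125 and 117 with pterostilbene and 67.8, 56.3 and 58.4 in the controls, with a log2 fold change of 0.90 (adjusted p = 0.0039, SE 0.14), and missed the threshold after quantile normalization (adjusted p = 0.070). The log2 ratio of *RAD18* to *RAD6* was -2.82 ± 0.18 with pterostilbene and -2.70 ± 0.18 in the controls (SD, n = 3 each), a smaller difference than the spread. Downstream of them the branches part into translesion synthesis and an error-free route. *RAD30*, DNA polymerase eta, read 61, 54 and 46.5 with pterostilbene and 36.5, 38.1 and 46.1 in the controls (log2 fold change 0.42, SE 0.15, adjusted p = 0.07), which became an adjusted p of 0.045 without pterostilbene replicate C. *RAD5*, the ligase and helicase of the error-free route, overlapped, at 89.3, 126 and 87.9 with pterostilbene and 88.6, 84.5 and 107 in the controls (log2 fold change 0.10, SE 0.19), and its sign turned to -0.07 without pterostilbene replicate B.

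Neither gene of other roles passed the test. *RAD27*, the flap endonuclease that trims Okazaki fragments, read 249, 269 and 266 with pterostilbene and 314, 301 and 215 in the controls (log2 fold change -0.06, SE 0.17, adjusted p = 0.79). *RAD61*, whose product releases cohesin from chromosomes, read 24.7, 33.7 and 30.3 with pterostilbene and 28.2, 8.7 and 24.6 in the controls (log2 fold change 0.69, SE 0.47, adjusted p = 0.28). Its signal in control replicate B was at the level of the mouse transcripts, the only such signal among the probe sets that represent the 29 genes.

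The groups were then set side by side. The median log2 fold change was 0.85 in excision, 0.59 in recombination, 0.70 in checkpoint and 0.66 in damage bypass genes, against 0.22 in all genes. Without control replicate A checkpoint genes came above excision genes, with 0.882 in checkpoint and 0.876 in excision genes. Of excision genes 69.2% rose, and of each of the other 3 groups 50%, against 35.8% of all genes. After quantile normalization 5 of 13 excision, 2 of 6 recombination, 1 of 4 checkpoint and 1 of 4 damage bypass genes rose. Of all genes 21.6% rose under that scaling. The mean log2 signal of the excision genes was 7.27, 7.24 and 7.29 on the pterostilbene arrays, against 6.42, 6.46 and 6.30 on the control arrays. The mean over recombination genes was 7.25, 7.40 and 7.42 with pterostilbene, and 6.87, 6.83 and 6.87 in the controls. Neither pair of ranges overlapped. The same held for checkpoint genes, damage bypass genes and all genes. The mean over all genes was 8.05, 8.07 and 8.13 with pterostilbene, and 7.77, 7.72 and 7.74 in the controls. Within an array, the excision mean less the recombination mean was 0.02, -0.16 and -0.13 with pterostilbene, against -0.45, -0.37 and -0.56 in the controls, so the difference between groups was 0.37 larger for excision genes. The corresponding excess was 0.22 over checkpoint genes and 0.26 over damage bypass genes, and in both cases the array values of the groups overlapped. No test was made of these differences between groups of members. The median control signal was 59.7 over excision genes and 110.5 over recombination genes. Whether brightness had a part in the differences was not tested.

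Most RAD genes were read by dim probe sets. With all genes cut into 4 equal bins by mean signal, 17 RAD genes lay in the dimmest bin, 6 in the next, 4 in the third and 2, *RAD23* and *RAD52*, in the brightest. Brightness depends on the probes as well as on the transcript, so these bins do not order genes by expression. Log2 fold changes of all genes were higher in the dimmer bins. In the dimmest bin the median log2 fold change of all genes was 0.52 with 40.7% risen, and the RAD genes there had a median of 0.75, with 10 of 17 risen. In the next bin the median was 0.35 for all genes (42.6% risen) and 0.33 for the RAD genes, of which 2 of 6 rose. The third bin had a median of 0.17 over all genes (36.4% risen) and of 1.22 over its RAD genes, with *RAD2*, *RAD6* and *RAD7* risen and *RAD27* not. In the brightest bin the median was -0.21 over all genes, of which 23.5% rose and 39.3% fell, whereas *RAD52* rose and *RAD23* did not pass the test.

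**Figure D3:**
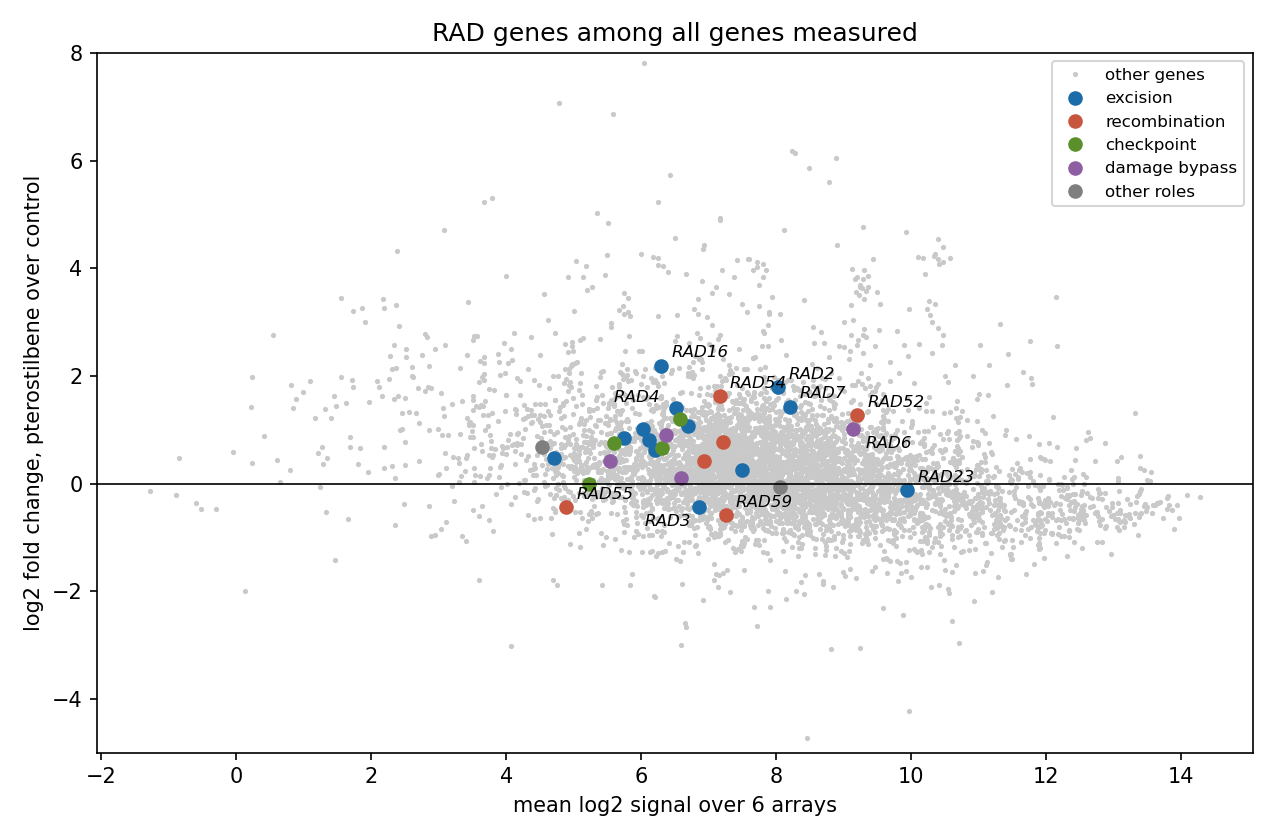
Log2 fold change, pterostilbene over control, against mean log2 signal over 6 arrays for 5656 genes (grey) with the 29 RAD genes coloured by role. The grey cloud slopes down from dim to bright genes, and *RAD52*, *RAD6*, *RAD7* and *RAD2* stand in its upper part at higher signal, while *RAD3*, *RAD55* and *RAD59* stand below 0.

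The median of all genes, 0.22 as deposited, was -0.13 after quantile normalization, -0.23 after median centring and 0.36 after reference gene centring. Relative to the median gene as deposited, the log2 fold change was 1.97 for *RAD16*, 1.57 for *RAD2*, 1.39 for *RAD54*, -0.67 for *RAD55* and -0.82 for *RAD59*. The genes *RAD1*, *RAD2*, *RAD4*, *RAD6*, *RAD7*, *RAD9*, *RAD16*, *RAD52* and *RAD54*, 9 in all, rose under each of the 4 scalings, and they kept this call under all other settings tried. They comprise 5 excision genes, 2 of recombination and 1 each of checkpoint and damage bypass. No RAD gene fell under all 4 scalings. After reference gene centring, *RAD24*, *RAD30*, *RAD33* and *RAD57* rose as well. Those that fell after both quantile normalization and median centring were *RAD3*, *RAD17*, *RAD55* and *RAD59*.

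**Figure D4:**
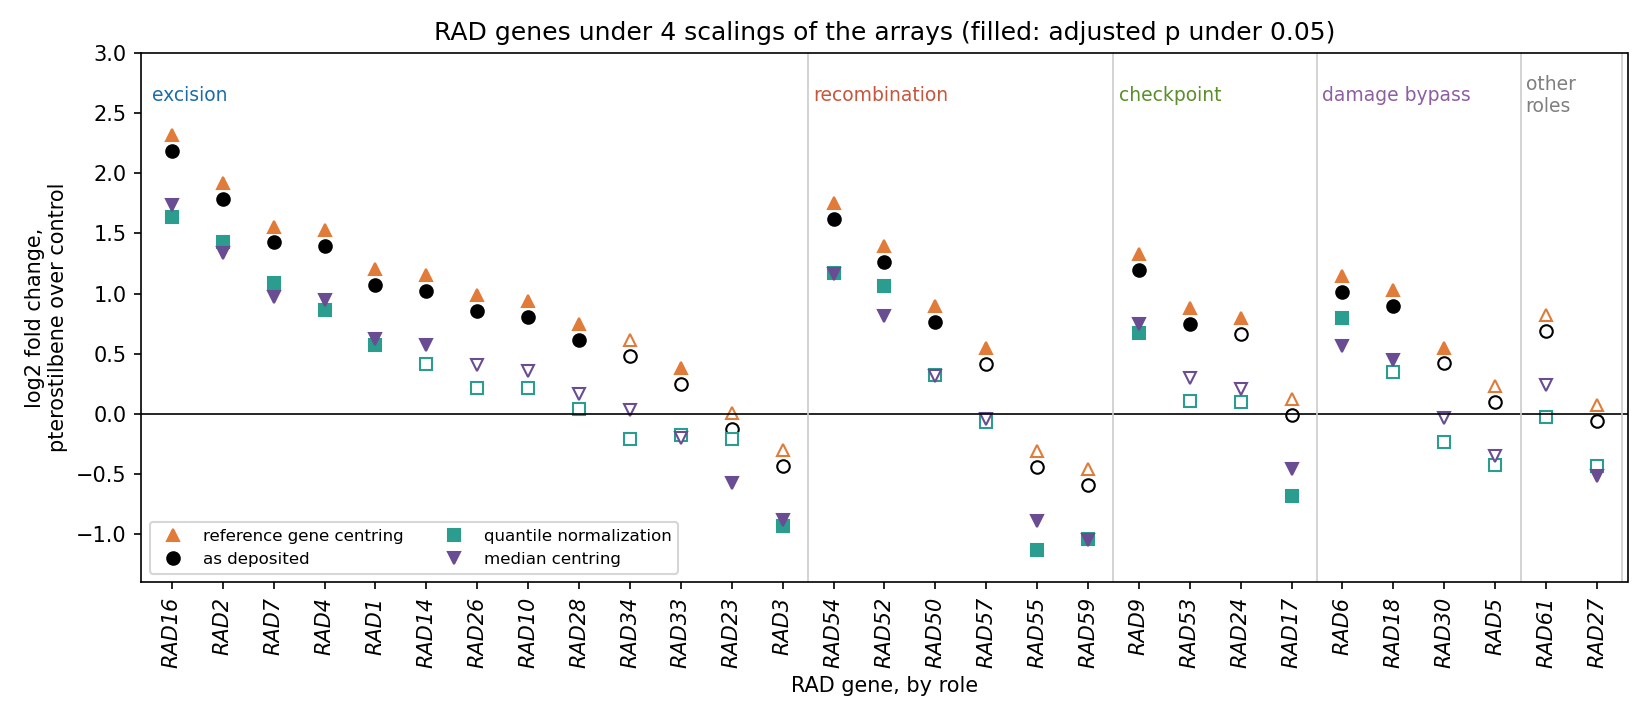
Log2 fold change, pterostilbene over control, of each RAD gene under 4 scalings of the arrays, with filled symbols for adjusted p under 0.05. For 9 genes all symbols are filled and above 0, from 0.56 (*RAD6*, median centring) to 2.32 (*RAD16*, reference gene centring), while *RAD3*, *RAD17*, *RAD55* and *RAD59* have filled symbols below 0 after quantile normalization and median centring, and *RAD23* and *RAD27* after median centring.

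Other genes of repair, the checkpoint and the damage response, 84 in all, had 31 rises, 8 falls and 45 genes without a call, with a median log2 fold change of 0.24, against 0.22 for all genes. The shares were 36.9% risen and 9.52% fallen in these lists, against 35.8% and 18.4% of all genes. Without pterostilbene replicate B 20 rose and 4 fell. The split turned to 12 rises and 28 falls under quantile normalization, where 21.6% of all genes rose and 30.4% fell. It also turned under median centring, to 13 and 26, where 19.3% and 39% of all genes did. Under reference gene centring it kept its direction, with 39 rises and 4 falls, where 43.7% and 14.5% of all genes did. The partners in excision come first. Of 16 genes for TFIIH, replication protein A and accessory factors, 3 rose and 2 fell, with a median log2 fold change of -0.0019. After quantile normalization 1 of this list rose and 7 fell, and after median centring 1 rose and 8 fell. Both falls were lost without control replicate A or B or pterostilbene replicate A or B, and 3 genes fell without control replicate C and 3 without pterostilbene replicate C. *SSL2*, which the gene table also lists as *RAD25* and which encodes the other helicase of TFIIH, read 210.2, 219 and 169 with pterostilbene and 76.9, 81.5 and 82.9 in the controls, a log2 fold change of 1.30 (adjusted p = 0.001, SE 0.13). *CCL1*, a cyclin of the TFIIH kinase module, had 0.62 (adjusted p = 0.0082, SE 0.12).

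Of the recombination partners 11 of 20 rose and 1 fell, where 35.8% of all genes rose and 18.4% fell. *TOP3* and *SGS1*, the topoisomerase and helicase that take crossed strands apart, had log2 fold changes of 1.25 (adjusted p = 0.0016, SE 0.15) and 1.09 (adjusted p = 0.00088, SE 0.11). *MRE11*, also listed as *RAD58* and the partner of Rad50, was not called, at 53.6, 48.6 and 75.1 with pterostilbene and 100.4, 74.6 and 57.7 in the controls. After quantile normalization 4 of this list rose and 6 fell, where 21.6% and 30.4% of all genes did. Without pterostilbene replicate B 5 rose and 1 fell.

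Upstream of Rad9 and Rad53 stand the kinases Mec1 and Tel1. Of 12 checkpoint partners 4 rose and 1 fell, where 35.8% of all genes rose and 18.4% fell. After quantile normalization 0 rose (0 at limma's unadjusted p under 0.05) and 5 fell, where 21.6% and 30.4% of all genes did. The 4 rises became 1 without pterostilbene replicate B and 2 without control replicate A or control replicate C. *MEC1* read 156, 188 and 239 with pterostilbene and 108, 126 and 91 in the controls (log2 fold change 0.83, SE 0.21, adjusted p = 0.021). *TEL1* had a log2 fold change of 0.40 (adjusted p = 0.056, SE 0.14). Among the effector kinases, *CHK1* had 0.49 (adjusted p = 0.0093, SE 0.10) and *DUN1*, which Rad53 activates, had -0.13 (adjusted p = 0.51, SE 0.15). *PDS1*, securin, which Chk1 protects to block anaphase, fell (-0.70 on the log2 scale, adjusted p = 0.012).

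In damage bypass 4 of 9 partners rose and 1 fell. For this list and the next ones, the shares of all genes were 35.8% risen and 18.4% fallen. Only 2 damage bypass partners rose without pterostilbene replicate A or pterostilbene replicate C. After quantile normalization 1 rose and 2 fell, where 21.6% and 30.4% of all genes did. Median centring also gave 1 and 2, where 19.3% and 39% of all genes did. *REV1* and *REV3*, of the mutagenic translesion polymerases, had log2 fold changes of 1.02 (adjusted p = 0.017, SE 0.24) and 0.94 (adjusted p = 0.0009, SE 0.09). In base excision repair 2 of 7 rose, *MAG1*, a glycosylase for alkylated bases (1.32, adjusted p = 0.004), and *NTG1*, a glycosylase for oxidised bases (0.92, adjusted p = 0.0058), and 1 fell, a call lost without control replicate B or pterostilbene replicate B. After quantile normalization 1 rose and 3 fell. Of 5 mismatch repair genes 1 rose, *MLH3* (1.42), and 1 fell, *MSH6* (-0.61). Of 6 end joining genes 1 rose, the ligase gene *DNL4* (1.16), and 1 fell, *YKU80* (-0.74, adjusted p = 0.032), a subunit of the end-binding Ku complex. No end joining gene fell without control replicate A or B or any 1 of the pterostilbene replicates, by the methods' t-test or after reference gene centring. For *MAG1* to *YKU80* the first value given is the log2 fold change.

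Genes known to be induced by DNA damage, outside the RAD set, rose in 6 cases of 10 and fell in 0 (0 at limma's unadjusted p under 0.05), with a median log2 fold change of 0.82. Of all genes 35.8% rose and 18.4% fell. The 6 risen genes of the list were *MAG1*, *DDR2*, *RNR3*, *HUG1*, *DIN7* and *PHR1*, the last 4 named here after their values were seen. *RNR3*, the damage-inducible large subunit of ribonucleotide reductase, read 225, 319 and 173 with pterostilbene and 79.3, 86.3 and 154 in the controls (log2 fold change 1.19, SE 0.34, adjusted p = 0.034), and *HUG1*, a small inhibitor of that enzyme, read 301, 299 and 361 with pterostilbene and 140.1, 163 and 181 in the controls (log2 fold change 0.99, adjusted p = 0.0032). *DDR2*, a general stress gene as well, had 1.26 (adjusted p = 0.0017, SE 0.15) on the log2 scale. The subunit genes *RNR2* and *RNR4*, which are also damage-inducible and were far brighter, did not pass the test (-0.07 and -0.20). Nor did *DDR48* (0.18, adjusted p = 0.19) and *PLM2* (-0.19, adjusted p = 0.61). After quantile normalization 4 of the list rose and 1 fell, where 21.6% and 30.4% of all genes did. After median centring 4 rose and 3 fell, where 19.3% and 39% of all genes did. By the methods' t-test 4 rose and 0 fell.

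**Figure D5:**
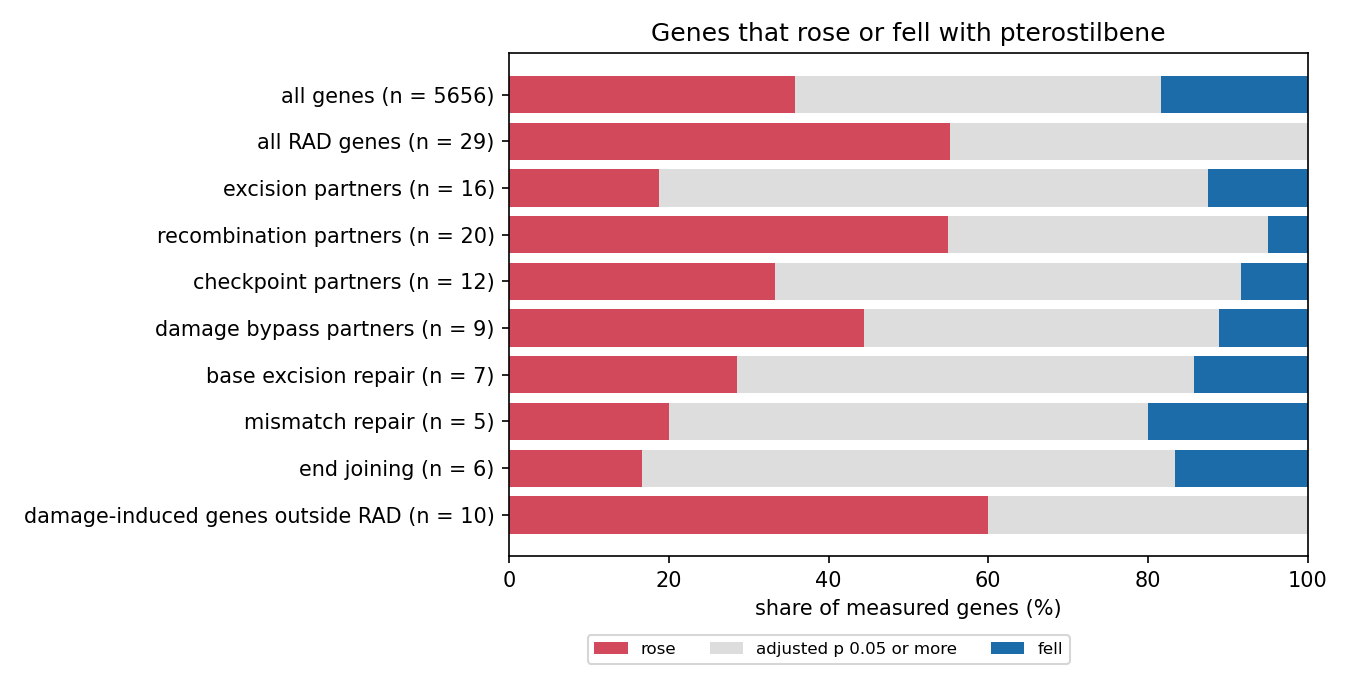
Share of measured genes that rose (red), fell (blue) or had an adjusted p of 0.05 or more (grey) among all genes, the RAD genes and 8 lists of other repair, checkpoint and damage-induced genes, with the number measured beside each name. The RAD genes and the damage-induced list have no blue segment, and the excision partners have a smaller red segment than all genes.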

How the data were processed

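Signals came from Affymetrix GeneChip Yeast Genome S98 arrays, 3 with pterostilbene and 3 with solvent. The deposited table holds 1 linear intensity value per probe set and array, normalized by the authors in software from Affymetrix, which the submitters' notes name as GCOS 1.1. The summarisation algorithm, background step and scaling target are not given in the sources used here.

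Of 9335 probe sets, 60 controls were left out and 9275 tested. Of these, 6504 had a single gene in the platform annotation, 328 had several and 2443 had none. Signals of 0 (23 in number) were raised to the smallest positive signal, 0.1. The test on log2 signals was limma's (version 3.58.1, R 4.3.3, lmFit and eBayes, Benjamini-Hochberg), and the procedure was run on simulated data. In that simulation only a small part of the probe sets changed, as many up as down, without a shift of whole arrays. It therefore does not show how the calls behave under the shifts between these arrays. Alternatives were quantile normalization, median centring, centring on 5 reference genes (*ACT1*, *ALG9*, *TAF10*, *TFC1* and *UBC6*), a pseudocount of 8.7, a floor of 22.7, the methods' t-test, a filter dropping the dimmest 25%, the replicate letter as a block, averaged probe sets and each array left out.

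With 3 arrays a group, an exact permutation test cannot go below p = 0.1, so none was used. The RAD genes and all lists were chosen with earlier results of these data known. Every RAD gene is named, with up to 2 genes per other list that had the largest call without overlap of the groups, and *MEC1*, *TEL1*, *CHK1*, *DUN1* and *RPN4*. *MRE11*, *RNR2*, *RNR3*, *RNR4*, *HUG1*, *DIN7*, *PHR1*, *DDR48* and *PLM2* were chosen after their values were seen. So were the signal bins, the genes upstream of RAD genes and the pairs of members set against each other. Gene names and order follow the RefSeq table of assembly R64.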

Additional observations from a re-analysis of the deposited data

How the results depend on the processing

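Of the 16 rises, 9 held under every alternative. The count of RAD genes that rose was 9 after quantile normalization. RAD genes that fell numbered 4 after quantile normalization, 6 after median centring and 1 with probe sets averaged (*RAD55*), and 0 to 1 with an array left out. With the replicate letter as a block (replicate block) 15 RAD genes rose, *RAD53* being lost (adjusted p = 0.064), and 4 other repair genes fell, while 7 recombination partners and 1 checkpoint partner rose. Arrays of one letter did not deviate together (correlations of -0.04 to -0.01), so the letters do not pair them. Other repair and checkpoint genes that rose numbered 12 after quantile normalization, 13 after median centring and 20 to 29 with an array left out, and those that fell 28, 26 and 4 to 9, with 4 after reference gene centring. Changed genes of these lists numbered 24 to 38 with an array left out.

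The median log2 fold change of excision genes was 0.22 after quantile normalization, 0.40 after median centring, 0.99 after reference gene centring, 0.73 with the pseudocount, 0.94 without the dimmest probe sets and 0.76 to 0.98 with an array left out. For recombination genes it was 0.13, 0.14 and, without the dimmest, 0.77. For checkpoint genes it was 0.10, 0.25 and 0.60 to 0.88 with an array left out, and for damage bypass genes 0.056 and 0.21.

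Signs turned only in genes that had not passed the test. After quantile normalization the log2 fold change was -0.43 for *RAD5*, -0.24 for *RAD30*, -0.17 for *RAD33*, -0.21 for *RAD34*, -0.065 for *RAD57* and -0.026 for *RAD61*, and after median centring -0.35 for *RAD5*, -0.033 for *RAD30*, -0.20 for *RAD33* and -0.039 for *RAD57*. Reference gene centring gave 0.12 for *RAD17*, 0.0059 for *RAD23* and 0.069 for *RAD27*. With an array left out, *RAD5* ran from -0.067 to 0.20, *RAD17* from -0.12 to 0.060 and *RAD27* from -0.23 to 0.038. The cause was not tested. The filter on dim probe sets kept 26 RAD genes.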

Other observations

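In yeast, genes that lie head to head can share the DNA between them. By the gene order of the reference table, 13 RAD genes have a measured upstream neighbour on the other strand. Of the 9 among these whose RAD gene rose, the neighbour rose in 3, fell in 3 and did not pass the test in 3. Of all genes 35.8% rose and 18.4% fell. Whether shared DNA had a part was not tested. *TNA1*, a nicotinic acid transporter gene next to *RAD2*, fell (-0.96 on the log2 scale, adjusted p = 7.1e-04), and so did *ERG2*, a sterol isomerase gene next to *RAD14* (-0.91, adjusted p = 0.0023). *NRD1*, an RNA-binding termination factor gene next to *RAD50*, rose with it (0.75, adjusted p = 0.0033), and *CYC8*, a corepressor gene next to *RAD16*, rose by 0.35 (adjusted p = 0.036) where *RAD16* rose by 2.19.

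Rad23 delivers ubiquitinated proteins to the proteasome. While *RAD23* did not pass the test, *RPN4*, the activator of proteasome genes, read 2322, 2139.6 and 2607 with pterostilbene, against 257, 220.2 and 224 in the controls, a log2 fold change of 3.33 (adjusted p = 9.9e-05, SE 0.12). With *RPN4* among them, 13 of 23 genes of the proteasome list rose and 1 fell, where 35.8% of all genes rose and 18.4% fell, with a median log2 fold change of 0.58. After quantile normalization 15 rose and 1 fell, where 21.6% and 30.4% of all genes did. Median centring gave 7 rises and 2 falls, where 19.3% and 39% of all genes rose and fell. With reference gene centring 19 rose and 0 fell, where 43.7% and 14.5% of all genes did. The fall seen as deposited was lost with any 1 array left out except control replicate B. *RPN2*, a scaffold subunit, had a log2 fold change of 1.40 (adjusted p = 0.00039, SE 0.10).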
